A study of Mus musculus with 8 samples.

Results

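The collagen chain genes were taken as every gene whose name has the form Col, a type number, the letter a and a chain number, such as Col1a1, and which was the only gene assigned to an Affymetrix probe set. This gave 82 probe sets, 58 on the MOE430A array and 24 on the MOE430B array, for 42 of the 18193 mouse genes that could be named in this way. Col6a6, Col21a1 and Col28a1 were not analysed here. The genes were placed in 6 structural classes: 11 fibrillar chains, 6 basement membrane chains, 5 beaded filament chains, 9 FACIT chains (fibril-associated collagens with interrupted helices), 4 transmembrane chains and 7 chains of other types.

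RNA came from mouse muscle of the hind limb grown in primary culture, described by the submitters as putative muscle-derived stem cells and grown in Ham's F10 medium with 20% fetal bovine serum. The PP6 cultures (replicates 2 and 3) were obtained by preplating, in which cells that attach slowly to the dish are carried forward; their purity was not estimated. The MACS cultures (replicates 2 and 3) were obtained with magnetic beads against Sca1 and CD45 as the Sca1+/CD45- population, with over 80% Sca1+ and under 1% CD45+ cells by flow cytometry. Muscle cells were named as the contaminating cell type of both, and no strain, age or genotype is given in the sources used here. Each culture was hybridised to 1 array of each type. The recorded RNA concentration was 35 and 15 ng/ul in PP6 replicates 2 and 3, against 55 and 65 ng/ul in MACS replicates 2 and 3. The recorded cell number was higher in both PP6 cultures than in both MACS cultures. RNA concentration and cell number thus cannot be told apart from the group, and their part in the differences was not tested. Nothing states that replicates came from separate animals, so p-values measure only the spread between these cultures, which may be technical.

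Collagens are secreted or membrane proteins whose alpha chains wind around each other into a rod-like helix. Fibrillar collagens form the load-bearing fibrils of connective tissue, type IV collagens form the sheet of the basement membrane around muscle fibres and vessels, and type VI collagens form beaded filaments that lie between fibrils and basement membranes. FACIT chains attach to the surface of fibrils, and transmembrane chains are anchored in the cell membrane. In skeletal muscle, most interstitial collagen is made by fibroblast-like cells, while muscle fibres, endothelial cells and Schwann cells also contribute basement membrane chains.

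Values are log2 of the array signal, and a difference is the mean of the 2 PP6 cultures minus the mean of the 2 MACS cultures on that scale. Where a gene had several probe sets, the value is that of 1 of them, and levels are not compared between genes because probes differ in brightness. A probe set was tested with limma where its signal was above the median of its array in at least 2 of the 4 cultures; 29 of the 42 genes passed. No collagen gene passed at an adjusted p of 0.05, and neither did any gene on the arrays (background 0%); the smallest adjusted p of a collagen gene was 0.264, for Col1a1, and the smallest over all probe sets was 0.255. Differences are therefore given as measured values. With 2 cultures against 2, an exact permutation test cannot go below p = 33.3%.

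Signals of 28 of the 42 collagen genes averaged higher in PP6 than in MACS and 14 averaged lower, with a median difference of 0.20 log2 units over the collagen genes, against 0.06 over all 18193 genes. The differences ran between -1.04 for Col15a1 and 2.67 for Col8a2. Both PP6 cultures lay above both MACS cultures for 13 of the 42 genes (31.0%), against 24.4% of all genes, and below both for 5 (11.9%), against 18.5% of all genes. For the remaining 24 genes the cultures of the 2 groups overlapped. At an unadjusted p of 0.05 in limma, 6 of the 29 genes that passed the filter (20.7%) were higher in PP6, against 5.81% of all tested genes. They were Col1a1, Col1a2, Col3a1, Col6a1, Col6a2 and Col23a1. None was lower, against 5.44% of all tested genes. Col23a1 passed the filter through the PP6 cultures alone, so its place among the tested genes is tied to its direction. The number higher in PP6 was 1 without PP6 replicate 2 and 12 without MACS replicate 3. Centring each array on its median shifted the median difference of all genes to -0.06, and quantile normalization shifted it to 0.01; under each of them, 3 of the 42 collagen differences took the other sign.

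**Figure D1:**
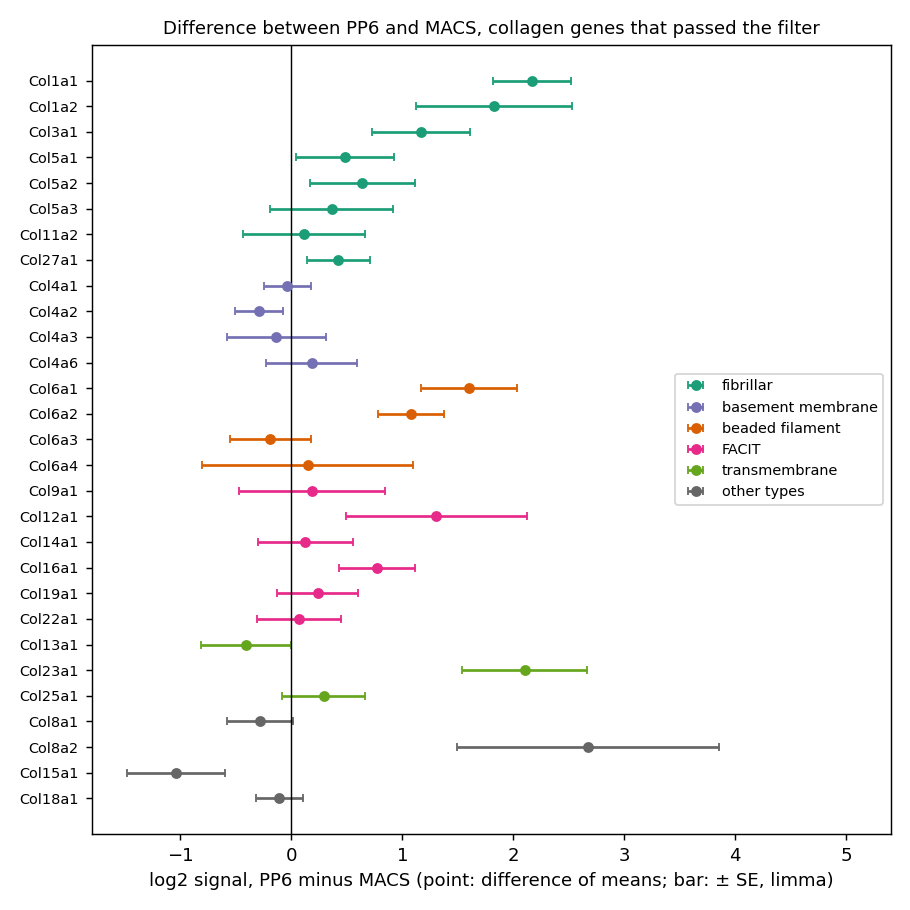
Difference in log2 signal between PP6 and MACS for the 29 collagen genes that passed the filter, ordered by class (y axis). Points are the difference of the group means (n = 2 cultures each) and bars are ± the standard error from limma. Col8a2, at 2.67, lies farthest to the right and Col15a1, at -1.04, farthest to the left, and the basement membrane chains lie close to 0.

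The chains of type I and type III collagen had the largest differences of the fibrillar class. Col1a1, the major chain of the type I fibril, had log2 signals of 12.55 and 11.92 in PP6 replicates 2 and 3, against 9.77 and 10.36 in MACS replicates 2 and 3. The groups did not overlap; the difference was 2.17 ± 0.35 (SE), or 4.49-fold (adjusted p = 0.264, limma). Col1a2, its partner chain in the type I heterotrimer, had 14.28 and 14.44 in PP6, against 11.40 and 13.67 in MACS. Both PP6 cultures were above both MACS cultures, but MACS replicate 2 stood 2.28 log2 units below MACS replicate 3. The Col1a2 difference of 1.83 ± 0.70 (adjusted p = 0.423) became 0.69 without MACS replicate 2, whereas that of Col1a1 became 1.87. Col3a1, whose homotrimer runs with type I in the fibrils of distensible tissue, had 15.32 and 15.53 in PP6, against 13.60 and 14.92 in MACS. Its difference was 1.17 ± 0.44 (adjusted p = 0.419), and 0.51 without MACS replicate 2.

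Further probe sets of these genes were measured. A second, dimmer Col1a1 probe set gave 1.17, and the second Col3a1 probe set gave 0.63. For Col1a2, another MOE430A probe set gave 1.14, while a dim MOE430B probe set that did not pass the filter gave -1.96. When the MOE430A arrays were fitted alone, with p adjusted within them, Col1a1 was the only collagen gene to pass (adjusted p = 0.0374), where 0.465% of all MOE430A probe sets passed as higher and 0.135% as lower in PP6.

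The promoter window of Col1a2, from 250 bases before to 50 after the transcript start, is shown for type I collagen (RefSeq, build GRCm38.p6, chr6:4505368-4505667, plus strand). No such window was found for Col1a1. Capitals mark CCAAT and GGGCGG on either strand, so that ATTGG and CCGCCC are the same motifs read on the other strand.
Col1a2: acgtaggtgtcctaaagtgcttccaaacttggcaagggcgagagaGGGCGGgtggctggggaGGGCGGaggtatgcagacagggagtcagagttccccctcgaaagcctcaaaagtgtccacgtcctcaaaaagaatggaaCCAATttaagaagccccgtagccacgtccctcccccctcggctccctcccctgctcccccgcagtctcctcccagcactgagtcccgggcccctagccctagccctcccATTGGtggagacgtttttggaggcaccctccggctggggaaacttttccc
The window holds 2 CCAAT and 2 GGGCGG matches and no TATAAA. A match here is a run of letters and says nothing of binding.

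Type V chains, which nucleate type I fibrils from within, differed less between the groups. Col5a1 had log2 signals of 12.88 and 12.81 in PP6, against 11.70 and 13.02 in MACS, a difference of 0.48 ± 0.44 (adjusted p = 0.713). Col5a2 had 15.29 and 14.99 in PP6, against 13.79 and 15.21 in MACS, a difference of 0.64 ± 0.47 (adjusted p = 0.644). Col5a3 had 12.07 and 11.58 in PP6, against 10.64 and 12.28 in MACS, a difference of 0.37 ± 0.55 (adjusted p = 0.838). In each of the 3 chains MACS replicate 2 was the lowest culture and the groups overlapped. Without that culture the differences were -0.18 for Col5a1, -0.07 for Col5a2 and -0.45 for Col5a3.

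The remaining fibrillar chains include those of cartilage. Col27a1, a minor fibrillar chain known from developing cartilage, had 13.26 and 12.59 in PP6, against 12.58 and 12.41 in MACS, with a difference of 0.42 ± 0.28 (adjusted p = 0.614); PP6 replicate 3 and MACS replicate 2 had nearly equal signals. Leaving PP6 replicate 2 out gave 0.086 for Col27a1, and leaving PP6 replicate 3 out gave 0.76. Col11a2, a chain of cartilage fibrils, had 9.08 and 9.35 in PP6, against 9.36 and 8.84 in MACS, and its groups overlapped (difference 0.12 ± 0.55, adjusted p = 0.956). Col2a1, Col11a1 and Col24a1 did not pass the filter. Col2a1, the main cartilage fibril chain, had 7.12 and 5.63 in PP6, against 6.92 and 6.64 in MACS. Col11a1 had 9.14 and 8.82 in PP6, against 8.22 and 8.14 in MACS, so both PP6 cultures were above both MACS cultures. Col24a1 had 8.83 and 7.59 in PP6, against 8.69 and 8.37 in MACS, and overlapped. Of the cartilage genes, Acan, the cartilage proteoglycan aggrecan, had 9.67 and 9.85 in PP6, against 9.31 and 8.58 in MACS. Sox9, the cartilage transcription factor, did not pass the filter and differed by -0.10.

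**Figure D2:**
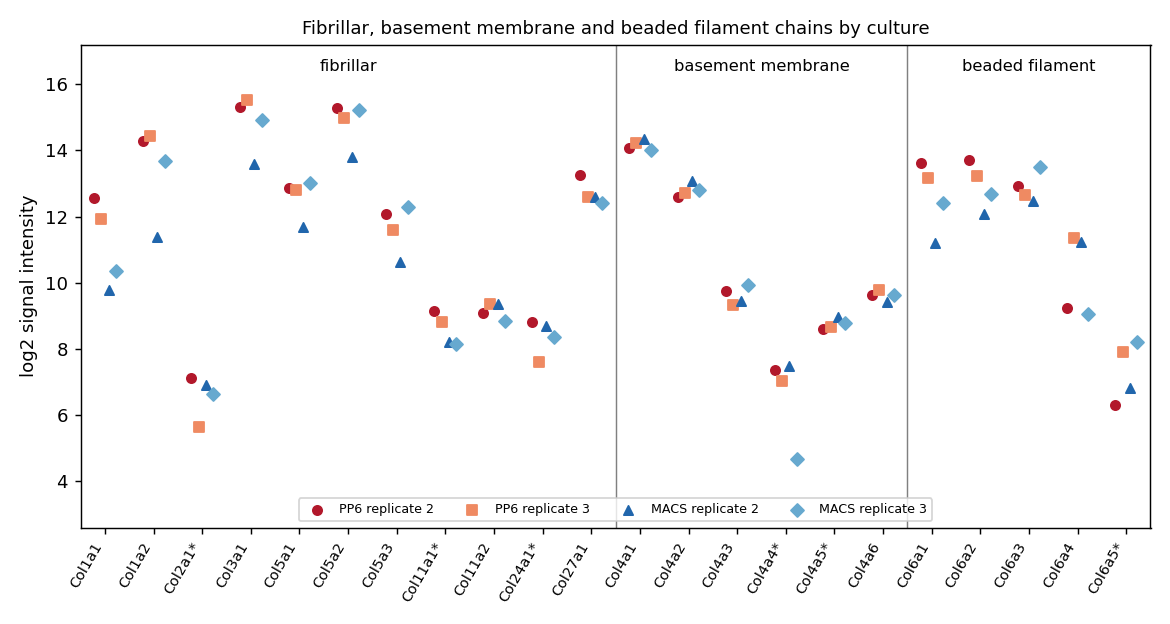
Log2 signal (y axis) of every measured fibrillar, basement membrane and beaded filament chain in PP6 replicates 2 and 3 and MACS replicates 2 and 3, 1 point a culture. An asterisk marks genes whose probe set did not pass the filter. The MACS replicate 2 points of Col1a2 (11.40), Col3a1 (13.60), Col5a1 (11.70) and Col5a2 (13.79) lie well below the other 3 cultures, while the 4 points of Col4a1 lie between 14.02 and 14.36.

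Basement membrane chains had a median difference of -0.09, and none of the 4 that passed the filter had an unadjusted p under 0.05. Col4a1 and Col4a2 form the type IV heterotrimer found in most basement membranes. Col4a1 had 14.09 and 14.22 in PP6, against 14.36 and 14.02 in MACS, a difference of -0.035 ± 0.22 (adjusted p = 0.967), and the groups overlapped. Its second probe set gave 0.03. Col4a2 had 12.60 and 12.70 in PP6, against 13.09 and 12.80 in MACS. Both PP6 cultures were below both MACS cultures, with a difference of -0.29 ± 0.21 (adjusted p = 0.644). The type IV chains known for narrower expression, in kidney, lung and eye among others, were Col4a3, Col4a4, Col4a5 and Col4a6. Col4a3 had 9.76 and 9.32 in PP6, against 9.44 and 9.92 in MACS (difference -0.14). Col4a6 had 9.64 and 9.77 in PP6, against 9.41 and 9.63 in MACS (difference 0.18), with PP6 just above MACS in both cultures. Col4a4 and Col4a5 did not pass the filter. For Col4a4 the values were 7.37 and 7.02 in PP6, against 7.48 and 4.67 in MACS, and its 3 probe sets ran from -1.81 to 1.12. Col4a5 had 8.62 and 8.67 in PP6, against 8.97 and 8.79 in MACS, while its other probe set gave 1.25.

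Col4a1 and Col4a2 lie head to head on chromosome 8 and are read in opposite directions, and their windows, shown here, overlap (RefSeq, GRCm38.p6). The Col4a1 window is chr8:11312777-11313076 on the minus strand, and the Col4a2 window is chr8:11312555-11312854 on the plus strand. Capitals mark the same motifs as for Col1a2.
Col4a1: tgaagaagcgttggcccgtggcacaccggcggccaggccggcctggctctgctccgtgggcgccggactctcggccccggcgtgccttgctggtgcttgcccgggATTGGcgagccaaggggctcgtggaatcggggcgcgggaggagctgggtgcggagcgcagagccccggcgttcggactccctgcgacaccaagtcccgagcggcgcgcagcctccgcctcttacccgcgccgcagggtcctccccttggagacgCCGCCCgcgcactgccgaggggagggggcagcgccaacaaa
Col4a2: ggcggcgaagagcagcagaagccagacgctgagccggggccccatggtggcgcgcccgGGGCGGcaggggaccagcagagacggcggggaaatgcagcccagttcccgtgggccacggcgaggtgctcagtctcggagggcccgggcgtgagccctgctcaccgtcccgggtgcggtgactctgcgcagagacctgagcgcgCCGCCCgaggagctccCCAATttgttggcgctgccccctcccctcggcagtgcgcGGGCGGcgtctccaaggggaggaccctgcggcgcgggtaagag
The windows share 78 bases, 11312777 to 11312854. The Col4a1 window holds 1 CCAAT and 1 GGGCGG match, and the Col4a2 window holds 1 CCAAT and 3 GGGCGG matches. The GGGCGG match of Col4a1 (at +10) and the last of Col4a2 (at +8) are the same shared bases, counted in both windows. Across the 36 windows found for 33 of the 42 genes, 61.1% held GGGCGG, against 35.66% of the 32851 windows of the same length in the table. CCAAT was in 36.1% of the collagen windows, against 37.41% of all windows, and TATAAA was in 13.9%, against 13.62%. Both strands were searched, and different motifs can share their end letters only.

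The type VI chains of the beaded filament class differed between PP6 and MACS by unequal amounts. Col6a1, a core chain of the type VI filament, had log2 signals of 13.64 and 13.18 in PP6, against 11.20 and 12.41 in MACS. The groups did not overlap, with a difference of 1.60 ± 0.43, or 3.04-fold (adjusted p = 0.334), and 1.00 without MACS replicate 2. Col6a2, the second core chain, had 13.71 and 13.22 in PP6, against 12.09 and 12.68 in MACS. This difference was 1.08 ± 0.30, or 2.12-fold (adjusted p = 0.334), and 0.78 without MACS replicate 2; a second Col6a2 probe set, of a type that can also bind related transcripts, gave 0.54. Col6a3, the long chain of the same heterotrimer, had 12.93 and 12.65 in PP6, against 12.48 and 13.49 in MACS. Its groups overlapped (difference -0.19 ± 0.37, adjusted p = 0.876), and without MACS replicate 2 the difference was -0.70.

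Col6a4 and Col6a5 are chains that can take the place of Col6a3 in the heterotrimer. Col6a4 had 9.25 and 11.35 in PP6, against 11.24 and 9.07 in MACS, so that each group held a high and a low culture (difference 0.15 ± 0.95, adjusted p = 0.968). Col6a5 did not pass the filter, with 6.31 and 7.91 in PP6, against 6.83 and 8.20 in MACS.

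To set chains of the same collagen type against each other, the difference in log2 signal between the 2 chains was taken in each culture and centred on its mean over the 4 cultures, so that only differences between cultures remain. The value for Col6a1 over Col6a3 was 0.98 and 0.81 in PP6, against -0.996 and -0.796 in MACS. The PP6 minus MACS difference in this ratio was 1.79, and 1.69 without MACS replicate 2. Col6a2 over Col6a3 gave 0.74 and 0.54 in PP6, against -0.43 and -0.84 in MACS, a difference of 1.27. In both ratios the replicates of a group lay closer to each other than to the other group. Col6a1 over Col6a2 gave 0.24 and 0.28 in PP6, against -0.57 and 0.05 in MACS, a difference of 0.52, or 0.21 without MACS replicate 2. Col1a1 over Col1a2 overlapped between the groups, with 0.57 and -0.23 in PP6, against 0.67 and -1.01 in MACS. Col4a1 over Col4a2 gave 0.12 and 0.14 in PP6, against -0.10 and -0.15 in MACS, a difference of 0.26. Col5a1 over Col5a2 gave -0.20 and 0.04 in PP6, against 0.13 and 0.03 in MACS, a difference of -0.16. Col8a2 over Col8a1 gave 1.64 and 1.32 in PP6, against -3.43 and 0.48 in MACS, a difference of 2.95, or 0.99 without MACS replicate 2. That ratio sets a MOE430B probe set of Col8a2 against a MOE430A probe set of Col8a1. Its value of -3.43 rests on a dim Col8a2 signal of 6.08, below the array median. These ratios were computed after the single values had been seen and have no test.

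**Figure D3:**
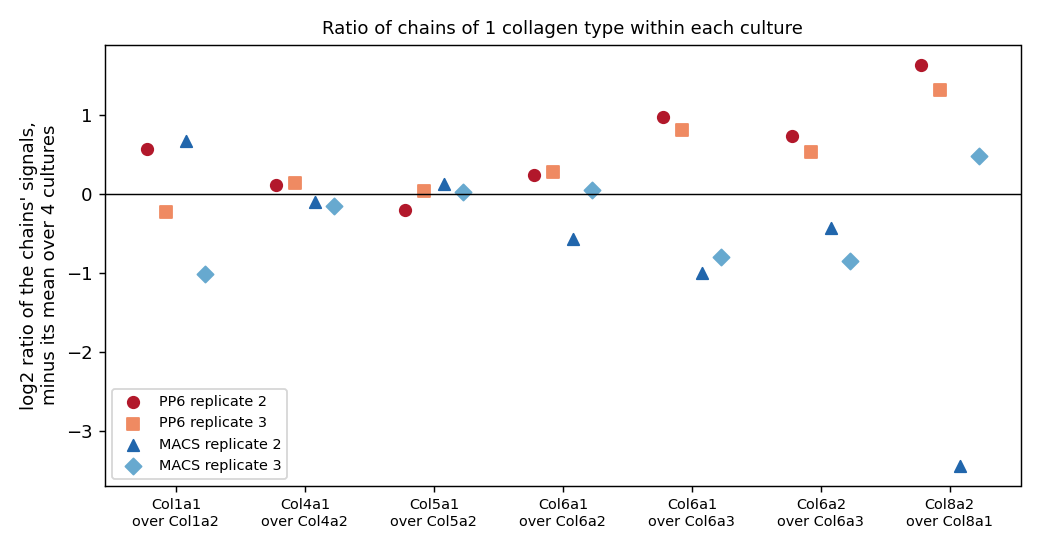
Log2 signal of the first chain minus that of the second, centred on the mean of the 4 cultures (y axis), for pairs of chains of the same collagen type, 1 point a culture. Col6a1 over Col6a3 lies at 0.98 and 0.81 in PP6 and at -0.996 and -0.796 in MACS, while Col5a1 over Col5a2 stays between -0.20 and 0.13.

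With all 4 cultures and the scaling used here, the 9 FACIT chains averaged higher in PP6, with a median difference of 0.24. The sign of Col22a1 changed after quantile normalization (-0.042) or median centring (-0.051), and other probe set choices or leaving out a culture gave negative values for Col9a1, Col9a3, Col12a1, Col14a1 and Col19a1 as well. Both PP6 cultures were above both MACS cultures for 2 of the 9, against 24.4% of all genes, and in the other 7 the groups overlapped. None of the 6 that passed the filter had an unadjusted p under 0.05. Col16a1, which binds to fibrils and cell surfaces, had 10.99 and 11.45 in PP6, against 10.14 and 10.76 in MACS. The groups did not overlap, and the difference was 0.77 ± 0.34 (adjusted p = 0.472), or 0.46 without MACS replicate 2. Col12a1, a FACIT chain of tendon and muscle connective tissue, had 11.74 and 11.63 in PP6, against 9.07 and 11.69 in MACS. Here MACS replicate 3 was level with the PP6 cultures, and the difference of 1.30 ± 0.82 (adjusted p = 0.594) was -0.0045 without MACS replicate 2.

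The other FACIT chains that passed the filter differed by less than their standard errors. Col9a1, a chain on cartilage fibrils, had 9.12 and 10.42 in PP6, against 8.97 and 10.20 in MACS. Col14a1, found on fibrils of tendon and skin, had 9.47 and 9.73 in PP6, against 9.38 and 9.57 in MACS. Neither gene separated the groups. Col19a1 had 10.35 and 10.27 in PP6, against 10.39 and 9.76 in MACS, and Col22a1, known from the myotendinous junction, had 10.97 and 10.20 in PP6, against 10.30 and 10.74 in MACS. For Col19a1 the 3 probe sets disagreed, running from -2.01 to 0.59. Col9a2, Col9a3 and Col20a1 did not pass the filter, and their differences were 0.54, 0.22 and 1.76.

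Among transmembrane chains, Col23a1 had one of the largest differences of all collagens. Its log2 signals were 10.50 and 10.24 in PP6, against 7.77 and 8.76 in MACS. The groups were separate, by 2.10 ± 0.56, or 4.29-fold (adjusted p = 0.334), and by 1.61 without MACS replicate 2. A second Col23a1 probe set that passed the filter had 10.44 and 9.87 in PP6, against 7.51 and 7.92 in MACS, a difference of 2.44 (adjusted p = 0.328). Both MACS cultures were below the median of their array on both probe sets, so the sizes of these differences rest on dim signals; a further probe set did not pass the filter and gave 0.69. Col13a1, a membrane collagen of the neuromuscular junction, had 9.67 and 9.28 in PP6, against 9.95 and 9.82 in MACS. Both PP6 cultures were below both MACS cultures, with a difference of -0.41 ± 0.41 (adjusted p = 0.740). Col25a1, known for its part in the innervation of muscle, had 9.88 and 10.22 in PP6, against 9.90 and 9.62 in MACS, and overlapped. Col17a1, the hemidesmosome collagen of skin, did not pass the filter and differed by -0.60.

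The chains of other types included the largest difference in each direction. Col8a2, a short-chain collagen of vessel walls and of the cornea, had 10.73 and 10.37 in PP6, against 6.08 and 9.67 in MACS. MACS replicates 2 and 3 were 3.59 log2 units apart, and the difference of 2.67 ± 1.18 (adjusted p = 0.470) was 0.88 without MACS replicate 2. MACS replicate 2 was below the median of its array, so the size of this difference rests on a dim signal. The difference was 0.87 with signals raised to a floor at the array median, and 1.70 with a pseudocount at the 20th percentile. Col8a1, the partner of Col8a2, had 10.36 and 10.32 in PP6, against 10.79 and 10.46 in MACS (difference -0.28 ± 0.30, adjusted p = 0.757). A MOE430B probe set of Col8a1 that passed the filter had 13.66 and 13.09 in PP6, against 13.05 and 14.00 in MACS. Its groups overlapped (difference -0.14), and a dim probe set that did not pass gave -0.88. Col15a1, a proteoglycan collagen at basement membranes of muscle fibres and capillaries, had 9.54 and 8.95 in PP6, against 10.01 and 10.55 in MACS. The groups did not overlap, and the difference was -1.04 ± 0.44 (adjusted p = 0.457), or -1.31 without MACS replicate 2. Col18a1, the related basement membrane collagen that gives rise to endostatin, had 13.08 and 12.83 in PP6, against 13.12 and 13.00 in MACS (difference -0.11 ± 0.21, adjusted p = 0.877). Its second probe set had 11.94 and 11.55 in PP6, against 12.33 and 12.01 in MACS. On that probe set both PP6 cultures were below both MACS cultures (difference -0.42, adjusted p = 0.586, limma). Col7a1, Col10a1 and Col26a1 did not pass the filter, and their differences were 0.07, -0.83 and 1.03.

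The classes differed in how the 4 cultures lay. Taking each gene's deviation from its mean over the cultures, the median over the fibrillar chains was 0.48 and 0.20 in PP6, against -0.90 and 0.06 in MACS. Thus MACS replicate 2 was low and MACS replicate 3 was near the PP6 cultures. For basement membrane chains the medians were -0.03 and -0.02 in PP6, against 0.20 and 0.01 in MACS. Beaded filament chains gave 0.05 and 0.57 in PP6, against -0.48 and -0.20 in MACS. FACIT chains gave 0.16 and 0.48 in PP6, against -0.26 and 0.03 in MACS. Transmembrane chains gave 0.18 and -0.04 in PP6, against -0.27 and -0.07 in MACS, and chains of other types gave 0.07 and -0.16 in PP6, against 0.19 and -0.01 in MACS.

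**Figure D4:**
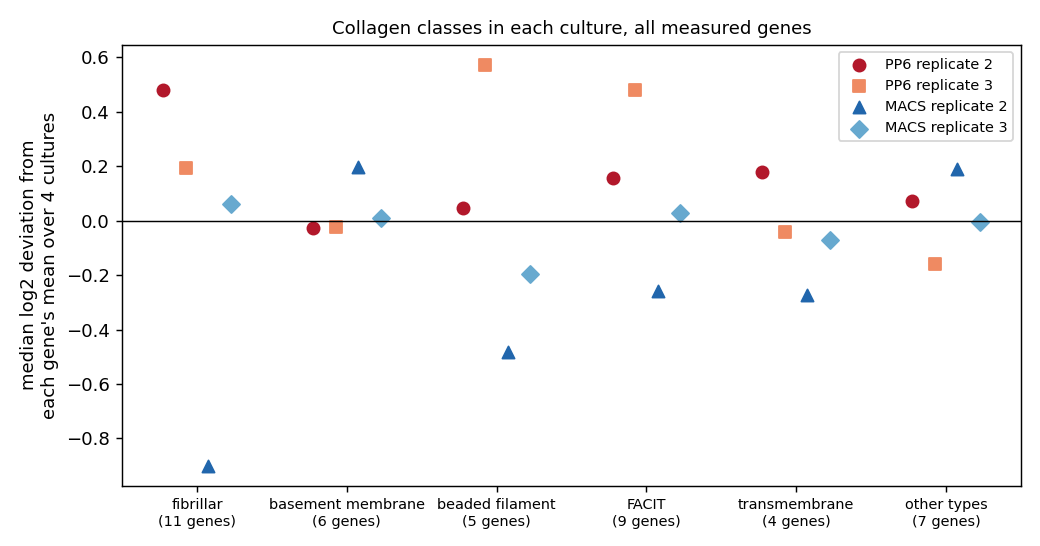
Median over the genes of each class of the deviation of log2 signal from the gene's mean over the 4 cultures (y axis), for PP6 replicates 2 and 3 and MACS replicates 2 and 3. The fibrillar class spans the widest range, between -0.90 in MACS replicate 2 and 0.48 in PP6 replicate 2, and the basement membrane class stays between -0.03 and 0.20.

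A count of the genes whose lowest culture lay over 1 log2 unit below the next lowest was made after the values had been seen. MACS replicate 2 was such a culture for 8 of the 42 collagen genes (Col1a2, Col3a1, Col5a1, Col5a2, Col6a1, Col8a2, Col12a1 and Col20a1), or 19.0%, against 4.31% of all genes. PP6 replicate 2 was so for 0 collagen genes (2.78% of all genes), PP6 replicate 3 for 1 (3.28%) and MACS replicate 3 for 2 (3.55%). MACS replicate 3 was above MACS replicate 2 for 23 of the 42 collagen genes, against 49.4% of all genes, and PP6 replicate 3 was above PP6 replicate 2 for 15, against 48.6% of all genes. Lox, the lysyl oxidase that cross-links collagen, had the same order of cultures as Col1a2, with 14.43 and 14.98 in PP6, against 11.45 and 13.90 in MACS. Without MACS replicate 2, the collagen genes with an unadjusted p under 0.05 in limma were 5 higher and 1 lower in PP6.

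**Figure D5:**
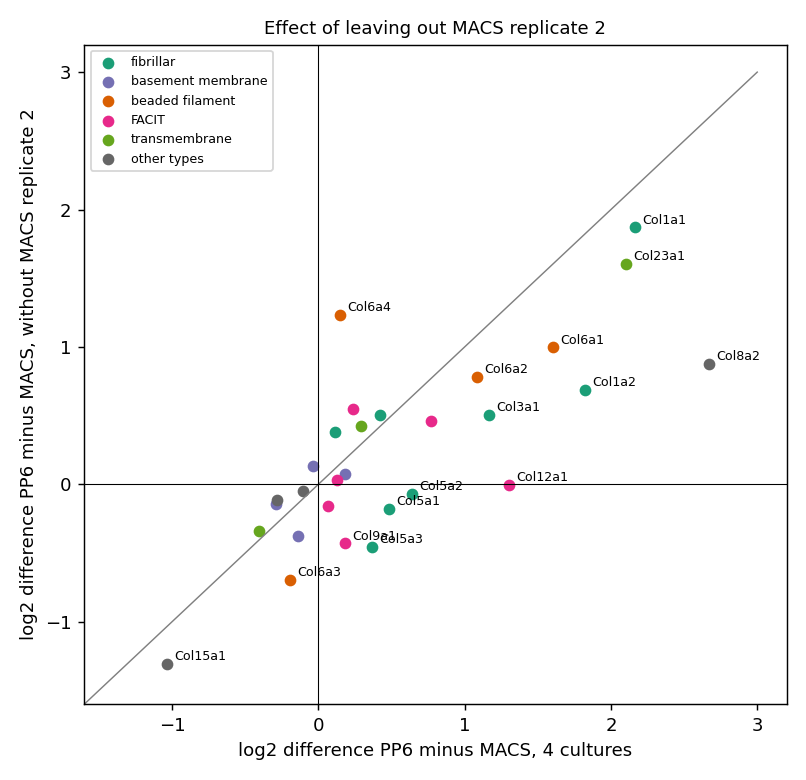
Difference in log2 signal between PP6 and MACS with all 4 cultures (x axis) and without MACS replicate 2 (y axis), 1 point a collagen gene that passed the filter. Col1a1 (2.17 and 1.87) and Col23a1 (2.10 and 1.61) stay close to the diagonal, while Col8a2 (2.67 and 0.88) and Col12a1 (1.30 and -0.0045) lie well under it.

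Genes that act on collagen before and after secretion were described from a list each, without a test of the list. Of 27 measured genes on the collagen synthesis list, 26 passed the filter. The list held genes for chain hydroxylation, glycosylation and folding, and others such as Sec23a, Sec24d, Mia3, Creb3l1, Sparc and Tmem38b. At an unadjusted p of 0.05 in limma, 1 was higher and 1 lower in PP6 (5.81% and 5.44% of all tested genes). None passed at an adjusted p of 0.05 (background 0%). The median difference of the 27 genes was 0.34, against 0.06 over all genes. P3h2, a collagen prolyl 3-hydroxylase, had 12.13 and 12.01 in PP6, against 11.41 and 11.44 in MACS (difference 0.64, adjusted p = 0.393). Colgalt2, a collagen galactosyltransferase, had 7.99 and 7.93 in PP6, against 10.04 and 9.61 in MACS (difference -1.86, adjusted p = 0.385). Colgalt2, the gene counted as lower, passed the filter through the MACS cultures alone, so its place among the tested genes is tied to its direction. For P3h4, a partner of lysyl hydroxylase, the difference was 0.70. Tmem38b, an endoplasmic reticulum cation channel, had 10.89 and 11.22 in PP6, against 8.09 and 10.36 in MACS, a difference of 1.83. For Tmem38b, MACS replicate 2 stood 2.27 log2 units below MACS replicate 3.

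Of 12 measured genes for collagen processing and cross-linking, 8 passed the filter; 3 were higher and 1 lower in PP6 at an unadjusted p of 0.05, against 5.81% and 5.44% of all tested genes, and none at an adjusted p of 0.05. The procollagen C-proteinase Bmp1 had 12.25 and 12.53 in PP6, against 11.44 and 11.72 in MACS (difference 0.81, adjusted p = 0.357). Its enhancer Pcolce had 13.25 and 13.16 in PP6, against 12.67 and 12.56 in MACS (difference 0.59, adjusted p = 0.384). The related enhancer Pcolce2 lay the other way, with 12.15 and 12.19 in PP6, against 13.21 and 13.45 in MACS (difference -1.16, adjusted p = 0.293). In all 3 genes the replicates lay within 0.28 log2 units of each other. Of 9 measured collagen receptors, 7 passed the filter; 1 was higher in PP6 at an unadjusted p of 0.05, against 5.81% of all tested genes, and 0 were lower, against 5.44%. This was Itga1, an integrin chain that binds type IV collagen, with 12.13 and 12.00 in PP6, against 11.52 and 11.38 in MACS (difference 0.61, adjusted p = 0.412). Itga10 differed by 0.74, its partner Itgb1 by -0.61 and the receptor kinase Ddr1 by -0.71.

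Markers of several cell types differed between the groups beside these collagen values. In whole cultures, fewer cells of a type and less RNA per cell cannot be told apart. The counts of markers that follow stand against 24.4% of all genes above, and 18.5% below, in both PP6 cultures. The summed signal of 10 fibroblast markers was 176142 and 152265 in PP6, against 101456 and 118102 in MACS. Of the 10, 4 were above and 1 below in both PP6 cultures, and Pdgfra, a receptor of fibro-adipogenic cells, differed by 0.03. A sum is weighted towards bright probe sets, here most of all Dcn, named after its values were seen. Dcn had 16.76 and 16.53 in PP6, against 15.14 and 15.68 in MACS. Vim, Lum and Fbln1 differed by -0.43, -0.21 and -0.35, and the other 7 differences were positive. Leukocyte markers were above in both PP6 cultures for 10 of 10 genes, against 24.4% of all genes, with sums of 86465 and 266827 in PP6, against 7826 and 9811 in MACS. Ptprc, which encodes CD45, had 9.71 and 11.43 in PP6, against 8.25 and 8.67 in MACS. Because MACS cells were selected as CD45-, a lower leukocyte signal was built into that group. The leukocyte count therefore cannot show a difference beyond the selection. Ptprc, Cd53 and Fcer1g passed the filter on their PP6 signals only, so the sizes of their differences rest on dim MACS signals.

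Endothelial markers were below in both PP6 cultures for 10 of 10 genes, against 18.5% of all genes, with sums of 30366 and 30542 in PP6, against 50889 and 42155 in MACS; Pecam1 differed by -0.29. Myogenic markers were above in both PP6 cultures for 6 of 10 genes and below for 1, with sums of 33284 and 53406 in PP6, against 18017 and 24237 in MACS. The muscle regulatory gene Myog differed by 2.26 and Myod1 by -0.19. The gene below in both PP6 cultures, named after its values were seen, was the satellite cell gene Pax7, with a difference of -1.56. Schwann cell markers were above in PP6 for 6 of 6 genes, with sums of 9835 and 9156 in PP6, against 3153 and 5263 in MACS. Mural cell markers were above for 7 of 9 genes, with sums of 48760 and 44487 in PP6, against 25956 and 35216 in MACS. Cartilage and tendon markers were above for 3 of 9 genes, near the share of all genes (24.4%), and below for 2, with 6 of the 9 differences negative, and with sums of 4859 and 5513 in PP6, against 5964 and 5337 in MACS. No marker had a signal of 0 in any culture. The part of these cell types in the collagen differences was not tested.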

How the data were processed

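Total RNA of 2 PP6 and 2 MACS cultures was the extracted material, biotin was the label, and the arrays were Affymetrix MOE430A and MOE430B. The authors deposited 1 signal intensity per probe set and array, made with MAS5 per the submitters' processing notes; neither its version nor its scaling target is stated in those notes. The deposited values held no detection calls. All 4 arrays of a type shared 1 lot, 1 hybridisation day and 1 scan day, and each culture had its own fluidics module, so module and culture cannot be told apart.

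The deposited intensity values were scaled to a common 2% trimmed mean per array type (1500.2 to 1500.65 before scaling), the log2 was taken with no pseudocount, and the values of both array types were stacked per culture (45037 probe sets without controls). Probe sets above their array's median in at least 2 cultures (23963) were tested with limma 3.58.1 in R 4.3.3 (lmFit, eBayes with an intensity trend, 2-sided, Benjamini-Hochberg over all tested). Genes were named from GEO's platform annotation, updated through Entrez identifiers to RefSeq; of the probe sets, 20393 of 22690 on MOE430A and 14674 of 22575 on MOE430B had 1 symbol, 691 and 245 had several, and 1606 and 7656 had none. The probe set of a gene was one that passed the filter, from MOE430A before MOE430B, with the highest mean. The number of arrays limits the precision. Replicates correlated at 0.839 in PP6 and 0.858 in MACS, and cultures of different groups at 0.783 to 0.835.

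The collagen genes, the gene lists and the tests were chosen with earlier results of these data known. Values in each culture are given for every fibrillar, basement membrane and beaded filament chain and for other chains that passed the filter; of the synthesis, processing and receptor lists the 4 genes with the smallest p are named. Alternatives changed the scaling, pseudocount (127.957 on MOE430A and 200.93 on MOE430B), filter, floor, variance trend, array type, probe set choice and pairing, and left out each culture. On simulated data with the design of the 23963 probe sets, 74% of changes of 2 log2 units and 24% of changes of -2 were called at an adjusted p of 0.05 in limma. Of changes of 4 and -4, 100% and 60% were called. The simulated noise was normal, with the SD that limma had already moderated, so these shares are not the power in the real data. There, Ngp, with a difference of 5.94, was not called (adjusted p = 0.255, limma).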

Additional observations from a re-analysis of the deposited data

How the results depend on the processing

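With 2 cultures a group, the number of arrays limits every result, and dim probe sets have no detection call to bound them. When a culture is left out, the lone one of its group is assumed to vary like the other group. Over all probe sets, 0 were called at an adjusted p of 0.05 in limma in either direction (1364 higher and 1396 lower in PP6 at an unadjusted p of 0.05). This became 5 higher with a filter at the 75th percentile, 18 higher and 5 lower with signals raised to a floor at the array median, and 55 higher and 16 lower with each array type fitted alone; leaving out a culture gave 0 to 1 higher and 0 lower. Fewer probe sets were tested with the stricter filter, and the other causes were not tested. Of the collagen genes, Col1a1 alone passed with each array type fitted alone (1 higher). At an unadjusted p, 1 collagen gene was lower in PP6, against 0, after quantile normalization, median centring, the floor, no intensity trend, each array type alone, or the mean of a gene's probe sets; leaving out a culture gave 0 to 1 lower and 1 to 12 higher, against 6.

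The replicate number as a block gave 2 probe sets higher and 0 lower at an adjusted p of 0.05, gave 6 collagen genes higher at an unadjusted p, and had a smallest collagen adjusted p of 0.476. Replicate differences of PP6 and MACS correlated at -0.03 over tested probe sets, so the numbers are not shown to pair the cultures; the block changed no other call.

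The median difference of basement membrane chains was -0.21 after median centring, -0.13 after quantile normalization and 0.045 with the floor, against -0.086. Chains of other types had -0.23 after median centring, -0.066 after quantile normalization and -0.21 with the mean of a gene's probe sets, against -0.11. FACIT chains had 0.54 with the 75th percentile filter, 0.096 after quantile normalization, 0.12 after median centring and 0.13 with the floor, against 0.24. Beaded filament chains had 0.042 after quantile normalization and 0.029 after median centring, against 0.15, and transmembrane chains had -0.14 and -0.18, against -0.059, with 0.024 with the pseudocount and 0.028 with the mean of a gene's probe sets. With the floor, transmembrane chains had 0.21 and chains of other types 0.13. Leaving out a culture gave 0.38 to 1.14 for fibrillar, -0.24 to -0.0067 for basement membrane, -0.047 to 0.84 for beaded filament, 0.24 to 0.75 for FACIT, -0.070 to 0.20 for transmembrane and -0.23 to -0.062 for other chains.

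Single genes took the other sign in these settings. Col11a2 was -0.018 and Col22a1 -0.042 after quantile normalization, and -0.010 and -0.051 after median centring. Without a filter another probe set was taken, giving -0.16 for Col12a1 and -2.01 for Col19a1, and -2.01 for Col19a1 also with the 75th percentile filter. Leaving out a culture in turn gave differences of both signs for 14 of the 29 genes that passed the filter, and for 7 of the 13 that did not. The lowest came without MACS replicate 2 and the highest without MACS replicate 3 for Col12a1 (-0.0045 to 2.61), Col5a1 (-0.18 to 1.14), Col5a2 (-0.070 to 1.35), Col5a3 (-0.45 to 1.18) and Col6a3 (-0.70 to 0.32). The range was -0.15 to 0.38 for Col11a2, -0.0059 to 0.26 for Col14a1, -0.23 to 0.020 for Col18a1, -0.077 to 0.55 for Col19a1, -0.32 to 0.45 for Col22a1, -0.20 to 0.14 for Col4a1, -0.38 to 0.10 for Col4a3, -0.94 to 1.24 for Col6a4 and -0.46 to 0.83 for Col9a1. The causes were not tested.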
